A study of Mus musculus with 6 samples.

Results

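The 68 genes described here carry the names of the axon guidance families and were taken by symbol, from 18193 genes that a probe set names alone on the array. They are the Eph receptors and ephrins (Epha, Ephb, Efna, Efnb), the semaphorins of classes 3 to 7, the plexins, the neuropilins Nrp1 and Nrp2, netrin-1 (Ntn1) with Dcc and the Unc5 receptors, and the Slits with the Robos. Together they had 152 probe sets, and each gene is given by its brightest one, that with the highest mean over the 6 arrays. The name pattern also took in 3 genes that are not guidance ligands or receptors, Unc50, Unc5cl and Plxna4os1, which leaves 65 guidance genes. The mean of at least 1 treatment group was 50 or more, the minimum for testing, for 53 of the 65 and for Unc50, so 54 genes were tested.

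The samples were ribosome-bound RNA from cortex, isolated by translating ribosome affinity purification (TRAP), in which a tagged ribosomal protein is expressed from a bacterial artificial chromosome (BAC) and pulled down with its mRNA. FLX mice drank fluoxetine, a selective serotonin reuptake inhibitor, at 0.167 mg/ml in 1% saccharine, and VEH mice drank 1% saccharine without it, both for 15 to 18 days. All mice of both groups carried the S100a10 BAC transgene of line ES691, carried a constitutive knockout of p11, the S100a10 protein, and came from FVB stock backcrossed for 3 to 5 generations to C57BL/6. There were 3 arrays per group, called biological replicates 1 to 3 in the titles, and values in sets of 3 below follow that order; neither the age of the mice nor the number pooled per array is stated in the labels. The submitters state that the BAC also labels cells that are not neurons.

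Axon guidance molecules steer growing axons by attraction or repulsion, and in the adult brain many of them act at synapses, on vessels and in glia. Ephrins are ligands bound to the membrane, by a lipid anchor in the A class and by a transmembrane segment in the B class, and they bind the Eph receptor tyrosine kinases. Secreted class 3 semaphorins signal mostly through neuropilins joined to plexins, and the other vertebrate semaphorins, most of them anchored in the membrane, bind plexins directly. Netrin-1 attracts axons through Dcc and repels them through Unc5 receptors, and Slits repel through Robos.

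Array medians over all probe sets were 38.5 to 41.9. Replicate 3 was unlike the others in FLX and in VEH: its arrays correlated with the other arrays at r = 0.867 to 0.916 over the tested probe sets and with each other at 0.973, against 0.987 to 0.995 among replicates 1 and 2. The brightest S100a10 probe set, of the x_at type that can match several transcripts, had 2222, 2037 and 349 in FLX and 3111, 2248 and 643 in VEH arrays; its place relative to the deletion is not known here, so it checks no label. All 8 pyramidal cell markers with a probe set were at 50 or more in at least 1 group, among them Slc17a7 (the cortical vesicular glutamate transporter) at 118 to 242. All 10 interneuron markers and all 15 leptomeningeal and fibroblast markers were too. The summed intensity of the leptomeningeal list was 30693 to 165907 over FLX arrays and 50617 to 157741 over VEH arrays, with replicate 3 lowest in each group. The lowest value of a marker of that list in any array was 20.5.

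No axon guidance gene passed the test for a treatment difference (0 of 54; limma, Benjamini-Hochberg adjusted p under 0.05 over 22200 probe sets), and neither did any other probe set (0.0%). At an unadjusted p under 0.05 the counts were 0 of the 54 and 83 of the 22200 probe sets (0.374%). With replicate number as a block the adjusted counts were again 0 of 54 and 0 of 22200. All differences below are therefore descriptions of 3 arrays against 3, in log2 units of the normalized intensity, FLX minus VEH.

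Of the 54 genes, 31 had a positive difference, which is 57.4%, close to the 58.1% of all tested genes. Their median was 0.06, against 0.05 over all tested genes. Differences ran from -0.56 for Efnb1 to 1.21 for Sema3e. The median was 0.07 over the 28 tested ligands and 0.04 over the 25 tested receptors. In bulk RNA fewer cells of a type and less RNA per cell cannot be told apart.

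The sign was the same in all 3 replicate numbers for 12 genes. The FLX array was the higher one in all 3 for 9 of the 54 (16.7%; 20.2% of all tested genes), and the lower one for 3 (5.56%; 13.6% of all tested genes). The 9 are Epha5, Epha7, Sema3c, Sema3e, Sema4g, Sema5a, Unc5d, Nrp2 and Plxnc1, and the 3 are Efna2, Efnb1 and Nrp1. Both shares lie below those of all genes, so agreement across replicate numbers was no more common here than elsewhere on the array. With the block, 7 of the 54 (13.0%) had an unadjusted p under 0.05, against 7.6% of all tested genes. All 7 were higher in FLX, and they are the 9 genes above without Nrp2 and Plxnc1. Of them Sema4g entered the test through its FLX mean alone, so its direction is not independent of the filter. Over all tested genes 3.59% reached that p on the higher side and 4.0% on the lower. Each of the 7 had an adjusted p of 0.623 with the block, so none is a call. Several of these differences moved when 1 replicate 3 array was left out and its counterpart, also low, was kept. Without the VEH replicate 3 array alone they were 0.04 for Epha5, 0.02 for Epha7, 0.07 for Unc5d and -0.0034 for Sema3c. Without replicate 3 of both groups they were 0.55 for Epha5, 0.51 for Epha7, 0.50 for Unc5d and 0.44 for Sema3c.

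Marker genes of other cell types also differed between the treatment groups, and none passed the test. The leptomeningeal and fibroblast list had a median of -0.35 (12 of 15 negative), and all 6 tested pericyte and smooth muscle markers were negative, with a median of -0.47. The direction was not the same in every replicate number. In replicate 2 the leptomeningeal median was 0.14, with 12 of 15 higher in FLX, and 3 of the 15 were lower in all 3 replicate numbers. Of the 6 pericyte and smooth muscle markers 3 were higher in replicate 2 and 2 were lower in all 3. Interneuron markers had a median of 0.24 (8 of 10 positive), layer 5 markers 0.18 (5 of 8) and pyramidal cell markers 0.15 (6 of 8). Of 11 astrocyte markers 7 were positive, with a median of 0.26 and a range from -0.28 to 1.5. Over all tested genes 58.1% were positive. Gfap, the intermediate filament of astrocytes, had 370, 372 and 1546 in FLX and 109, 159 and 547 in VEH arrays, a difference of 1.5 (SE 0.81, limma adjusted p = 1.00, and 0.574 with the block). The water channel Aqp4 had 209, 489 and 463 in FLX and 117, 326 and 120 in VEH arrays, a difference of 1.12 (SE 0.53). Both were higher in FLX in every replicate number. Their part in the guidance gene differences was not tested.

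**Figure D1:**
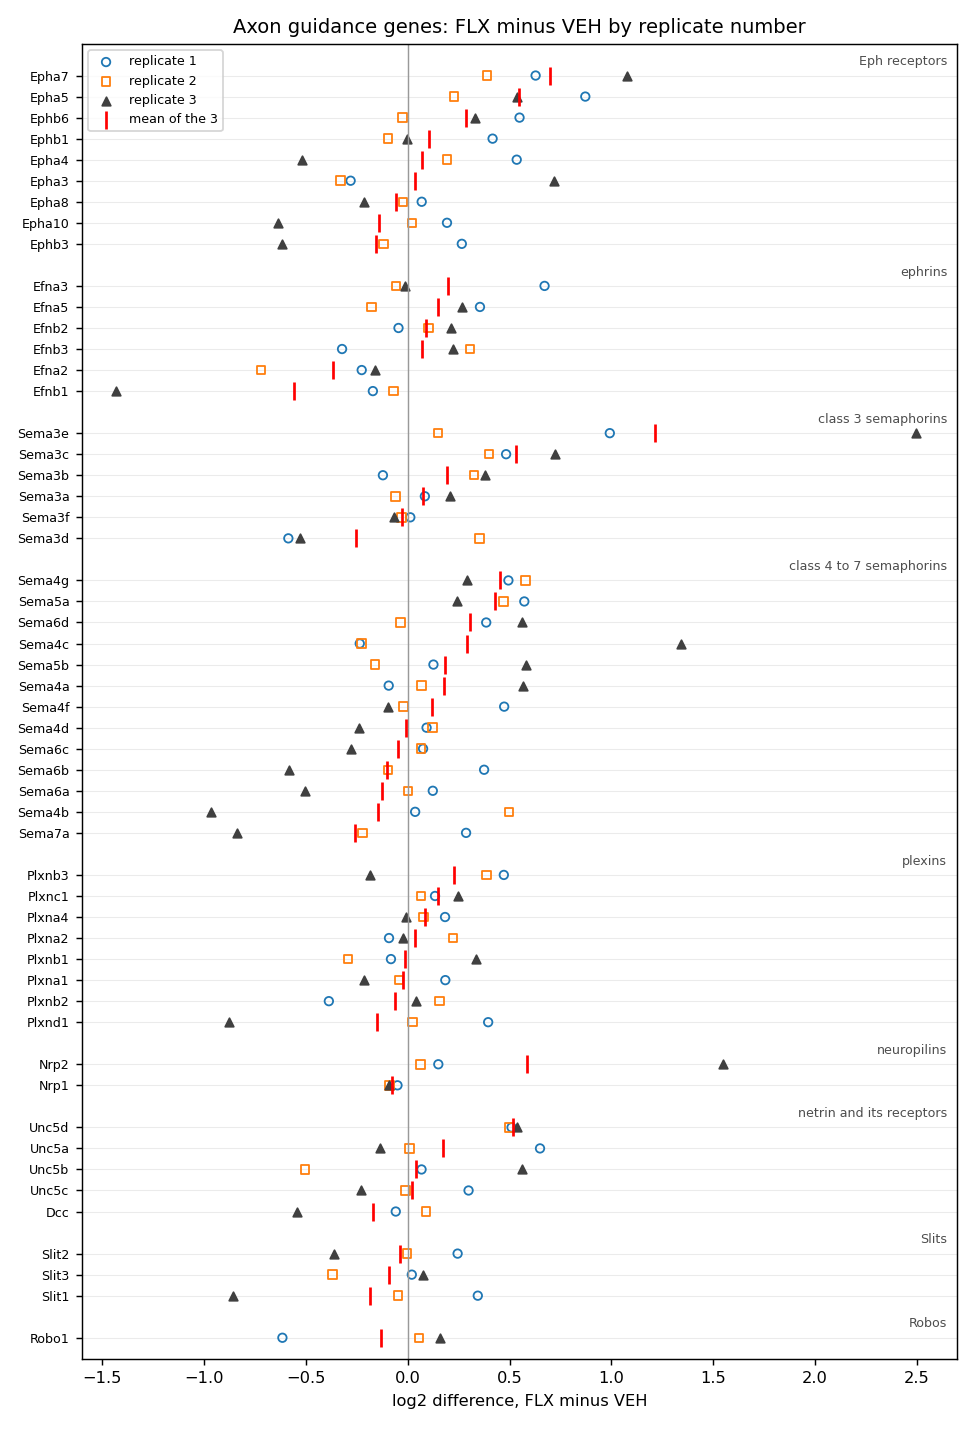
Log2 difference FLX minus VEH for the 53 tested guidance genes, by family, with a marker for each replicate number and a red bar for the mean of the 3. Most rows straddle 0. Epha5, Epha7, Sema3c, Sema3e, Sema4g, Sema5a, Unc5d, Nrp2 and Plxnc1 have all markers to the right of 0, and Efna2, Efnb1 and Nrp1 have all to the left. For Sema3e, Nrp2 and Efnb1 the replicate 3 marker lies far from the others.

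Eph receptors were tested for 9 of 13 genes, with 6 positive and 3 negative differences and a median of 0.07. Epha7, a receptor for ephrin-A ligands, had 1259, 1310 and 469 in FLX arrays, against 815, 1001 and 222 in VEH arrays. Its difference was 0.70 (SE 0.70, limma adjusted p = 1.00), with an SE of 0.19 and an adjusted p of 0.623 in the fit with the block. Within each replicate number the FLX array was higher, while the groups overlapped because both replicate 3 arrays were low.

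Epha5, another receptor of that class, had 2546, 2167 and 822 in FLX arrays, against 1391, 1853 and 567 in VEH arrays. The difference was 0.55 (SE 0.61, or 0.18 with the block), and its 3 tested probe sets gave 0.55, 0.56 and 0.68, each positive in all 3 replicate numbers. For Epha7 the 4 tested probe sets ranged from 0.05 to 0.70, and 2 of them were positive in every replicate number. Epha6 was below the minimum, at 43.1, 40.3 and 38.7 in FLX and 35.5, 24.6 and 21.4 in VEH arrays, values that do not overlap but were not tested with the filter. It is named here after its values were seen.

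Epha4, which binds ephrins of both classes, had 4574, 4244 and 1051 in FLX and 3156, 3714 and 1508 in VEH arrays. Its sign turned with the replicate number, 0.54, 0.19 and -0.52, and the mean was 0.07 (SE 0.67). Its probe sets disagreed in replicate 3. A second one had 4470, 4206 and 1264 in FLX and 3251, 3540 and 907 in VEH arrays, positive in each replicate number at 0.46, 0.25 and 0.48 with a mean of 0.40 (SE 0.72), and the other 3 gave 0.18, 0.12 and 0.04, each negative in replicate 3. The negative members of the family were Ephb3 (-0.16), Epha10 (-0.14), a receptor that lacks kinase activity, and Epha8 (-0.06), which was near the minimum at 67.0 to 75.1 in FLX and 63.9 to 87.2 in VEH arrays. Ephb6, also without kinase activity, had 0.28, Ephb1 0.11 and Epha3 0.04. Epha1, Epha2 and Ephb4 were below 50 in both groups.

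Among the ephrins 6 of 8 genes were tested, 4 with positive and 2 with negative differences. Efnb1, encoding the transmembrane ligand ephrin-B1, had 286, 314 and 130 in FLX arrays, against 322, 330 and 350 in VEH arrays. No FLX value reached the lowest VEH value, and Efnb1 was the 1 gene of the 54 with such a gap on the lower side (1.65% of all tested genes). The difference was -0.56 (SE 0.37, adjusted p = 1.00), made mostly by replicate 3 (-1.43), while replicates 1 and 2 gave -0.17 and -0.07. Without the FLX replicate 3 array it was -0.16. All 3 tested probe sets of Efnb1 were negative in every replicate number, at -0.36 to -0.63. The gap between the groups held for the brightest one alone, and the groups overlapped in the others. The probe set at -0.36 reached the minimum of 50 only through its VEH mean, the group where it was higher. Its direction is therefore not independent of the filter.

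Efna2 had 203, 193 and 151 in FLX and 238, 319 and 169 in VEH arrays, a difference of -0.37 (SE 0.29) that was negative in all 3 replicate numbers with overlapping groups. Leaving out 1 array at a time it lay between -0.60, without VEH replicate 3, and -0.15, without VEH replicate 2. The other tested ephrins were positive but small, with Efna3 at 0.20, Efna5 at 0.15, Efnb2 at 0.09 and Efnb3 at 0.07. Efna1 and Efna4 were below 50.

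**Figure D2:**
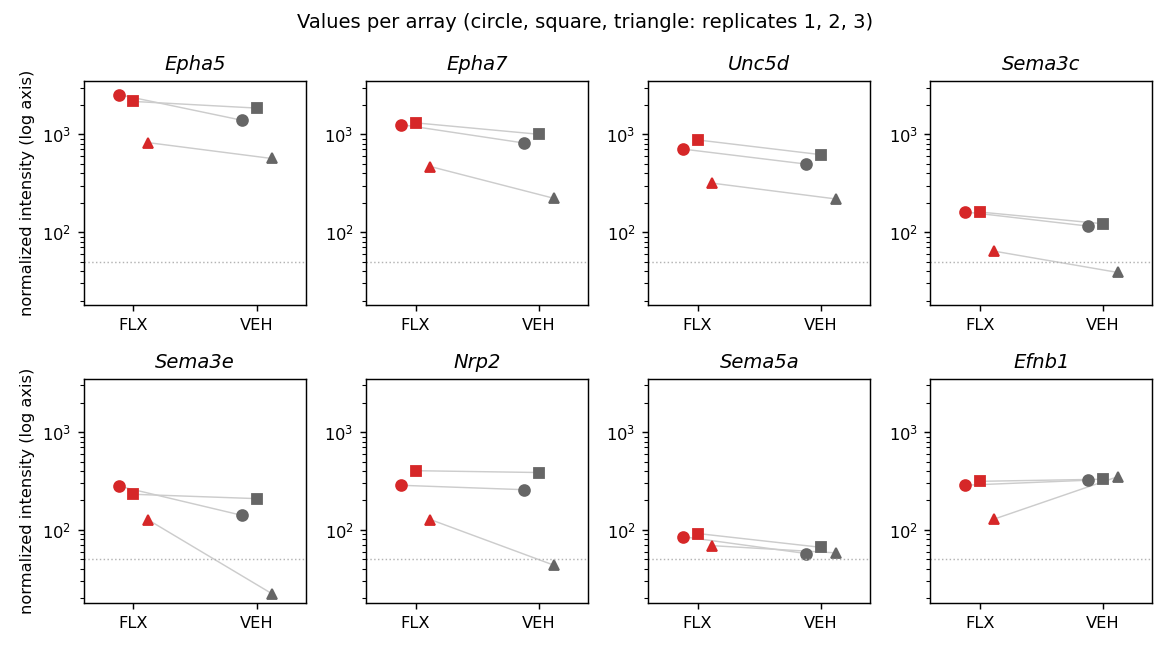
Normalized intensity (log axis) of 8 genes in each array, FLX in red on the left and VEH in grey on the right, with circles, squares and triangles for replicates 1, 2 and 3, lines joining equal replicate numbers and a dotted line at 50. In 7 panels each line slopes down from FLX to VEH, in the Efnb1 panel each slopes up, and the triangles of Sema3c, Sema3e and Nrp2 fall below 50 in VEH.

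Class 3 semaphorins were tested for 6 of 7 genes (4 positive, 2 negative, median 0.14). Sema3e, the ligand that binds plexin D1 without a neuropilin, had 280, 231 and 127 in FLX arrays, against 141, 209 and 22.4 in VEH arrays. The difference of 1.21 (SE 0.87, or 0.39 with the block) was the highest of the 54 genes. Without the VEH replicate 3 array it was 0.23, a setting that keeps the low FLX replicate 3 array. By replicate number it was 0.99, 0.15 and 2.50, and the second tested probe set gave 0.38. With the block and without replicate 2 of both groups, a setting chosen after seeing the data that leaves 1 residual degree of freedom, Sema3e passed at an adjusted p of 0.00762, along with 66 other probe sets.

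Sema3c, a secreted ligand for neuropilins, had 162, 161 and 64.1 in FLX and 116, 122 and 38.9 in VEH arrays. The difference was 0.53 (SE 0.59, or 0.16 with the block) and positive in each replicate number. Sema3a, the repellent that acts through Nrp1, had 0.08, Sema3b 0.19 and Sema3f, a ligand of Nrp2, -0.03, with 316 to 333 in FLX and 317 to 340 in VEH arrays. Sema3d had 336, 901 and 37.6 in FLX and 505, 706 and 54.1 in VEH arrays, so the spread between replicates was many times the mean difference of -0.25.

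All 13 semaphorins of classes 4 to 7 were tested, with 7 positive and 6 negative differences and a median of 0.12. Sema5a, whose extracellular part carries thrombospondin repeats, had 85.4, 92.0 and 69.1 in FLX arrays, against 57.5, 66.5 and 58.4 in VEH arrays. It was the 1 gene of the 54 whose FLX values all lay above the VEH values (2.61% of all tested genes). The difference was 0.43 (SE 0.20, limma adjusted p = 1.00). Its second tested probe set gave 0.66 with overlapping groups, at 0.20, 0.37 and 1.41 by replicate number. That probe set reached the minimum only through its FLX mean (63.6, against 45.1 in VEH). Sema4g had 56.8, 68.8 and 74.2 in FLX and 40.3, 46.1 and 60.6 in VEH arrays, positive in each replicate number at a mean of 0.45 (SE 0.24). Both genes lie close to the minimum of 50. Sema4g reached it only through its FLX mean (66.6, against 49.0 in VEH), the group where it was higher. Its mean over all 6 arrays was 57.8.

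Sema7a, a lipid-anchored semaphorin that binds plexin C1 and integrins, had 1471, 1118 and 1393 in FLX and 1206, 1305 and 2490 in VEH arrays. Its difference of -0.26 came from the VEH replicate 3 array, without which it was 0.07. Sema6d had 0.30, Sema4c 0.29, Sema6a -0.13, Sema4b -0.14 and Sema6b -0.10, each with signs that differed between replicate numbers. Sema4d, the plexin B1 ligand, was at -0.01.

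The 8 tested plexins of 9, receptors for semaphorins, were split into 4 positive and 4 negative, with a median of 0.01 and a range from -0.15 for Plxnd1 to 0.22 for Plxnb3. Plxnd1, which binds Sema3e, had 676, 598 and 485 in FLX and 514, 588 and 891 in VEH arrays, and its sign turned to 0.08 without the VEH replicate 3 array. Plxna4, a partner of neuropilins, was at 155 to 159 in FLX and 140 to 160 in VEH arrays. Plxnc1 was positive in all 3 replicate numbers at 0.15 (SE 0.55). For Plxna2 the brightest probe set gave 0.04 and the other 3 tested ones -0.05, -0.14 and -0.46.

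Nrp2 had 286, 403 and 128 in FLX and 258, 386 and 43.7 in VEH arrays, a difference of 0.59 (SE 0.89) made by replicate 3 (1.55), since replicates 1 and 2 gave 0.15 and 0.06. Without the VEH replicate 3 array, and with the low FLX replicate 3 array kept, it was -0.36. Nrp1 was at -0.08 and nearly constant over the replicate numbers (-0.05, -0.09 and -0.09), while another of its probe sets gave 0.38.

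The netrin family gave 5 tested genes of 6, 4 positive and 1 negative. Unc5d, a netrin receptor of the repellent class that also binds FLRT proteins, had 707, 877 and 317 in FLX arrays, against 497, 620 and 219 in VEH arrays. Its difference was 0.52 (SE 0.54, or 0.15 with the block), and the 3 replicate numbers gave 0.51, 0.50 and 0.54, nearly equal values. The groups overlapped only because replicate 3 was low in both. Unc5a had 0.17, Unc5b 0.04 and Unc5c 0.02. Dcc had -0.17, while its second tested probe set gave 0.18. Netrin-1 itself (Ntn1) stayed below 50, at 26.6 to 41.9 in FLX and 38.9 to 47.0 in VEH arrays.

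Slit and Robo values overlapped between the groups in all 4 tested genes. Slit2 had 916, 1115 and 213 in FLX and 773, 1118 and 274 in VEH arrays, a difference of -0.04. Slit1 was at -0.19 and Slit3 at -0.09, and the second tested probe set of Slit1 gave 0.30. Robo1, the one tested Slit receptor, had 615, 1157 and 231 in FLX and 942, 1113 and 207 in VEH arrays, a difference of -0.13 (SE 0.85). Robo2, Robo3 and Robo4 were below 50 in every array. Unc50, taken in by its name alone, was at 0.18.

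**Figure D3:**
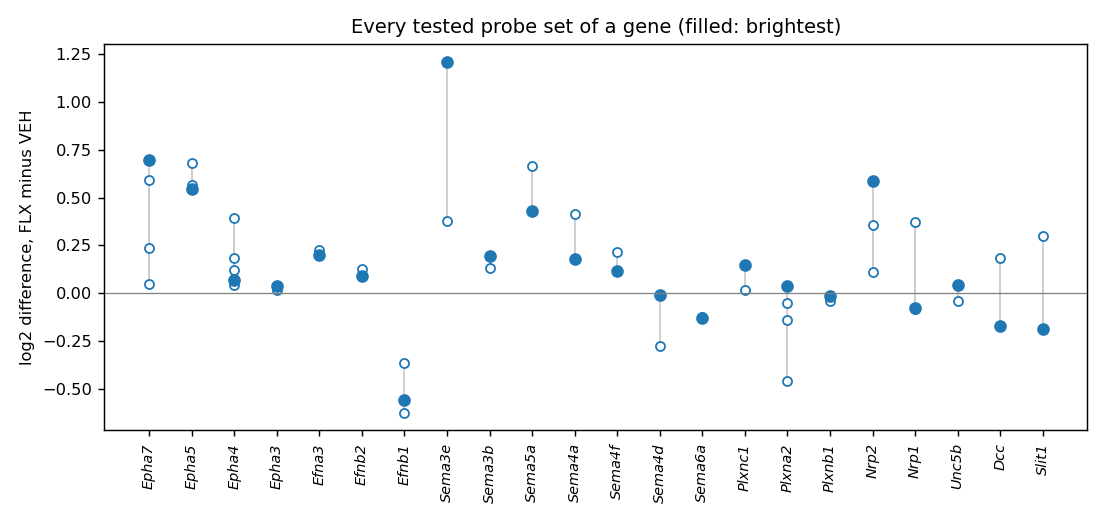
Log2 difference FLX minus VEH of every tested probe set, for the guidance genes with more than 1, filled for the brightest and open for the others. The 3 probe sets of Epha5 and the 3 of Efnb1 each lie on 1 side of 0, and those of Nrp1, Dcc, Slit1, Plxna2 and Unc5b fall on both sides.

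The stretches upstream of the start site are shown for 4 genes. These were higher in FLX in each replicate number, by a mean above 0.5. They are the 4 with the smallest block p that have an entry in the RefSeq promoter table of build GRCm38.p6, which holds 45 of the 54 tested genes; each is the 250 bases before the start, and capitals mark the GC box GGGCGG, to which Sp1-type factors bind, read as CCGCCC where it lies on the other strand.
Epha7, chr4:28812881-28813130, plus strand: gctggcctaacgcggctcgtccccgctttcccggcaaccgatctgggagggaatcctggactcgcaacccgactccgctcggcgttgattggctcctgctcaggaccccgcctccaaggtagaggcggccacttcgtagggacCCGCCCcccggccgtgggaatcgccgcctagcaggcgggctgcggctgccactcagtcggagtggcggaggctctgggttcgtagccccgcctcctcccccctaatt
Sema3c, chr5:17574566-17574815, plus strand: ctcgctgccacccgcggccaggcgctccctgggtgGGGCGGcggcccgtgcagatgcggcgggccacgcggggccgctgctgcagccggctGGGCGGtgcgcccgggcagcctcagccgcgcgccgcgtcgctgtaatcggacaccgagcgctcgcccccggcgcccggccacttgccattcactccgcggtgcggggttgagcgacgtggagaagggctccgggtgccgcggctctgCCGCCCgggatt
Sema3e, chr5:14025026-14025275, plus strand: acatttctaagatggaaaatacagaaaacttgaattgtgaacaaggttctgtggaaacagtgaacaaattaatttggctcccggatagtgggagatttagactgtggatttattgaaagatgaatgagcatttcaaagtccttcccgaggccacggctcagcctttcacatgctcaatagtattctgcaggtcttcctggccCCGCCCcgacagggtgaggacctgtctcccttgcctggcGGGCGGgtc
Epha5, chr5:84417383-84417632, minus strand: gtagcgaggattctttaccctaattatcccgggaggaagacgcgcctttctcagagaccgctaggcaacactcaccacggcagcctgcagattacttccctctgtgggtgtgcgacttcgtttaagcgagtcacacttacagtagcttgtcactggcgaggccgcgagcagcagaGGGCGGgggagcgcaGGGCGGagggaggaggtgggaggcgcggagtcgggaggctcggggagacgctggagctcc

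The 4 windows hold 1, 3, 2 and 2 GC boxes in that order, and their GC content is 69.2% in Epha7, 78.4% in Sema3c, 48.0% in Sema3e and 62.4% in Epha5. A GC box on either strand was found upstream of 34 of the 45 tested members with an entry (75.6%), of 59.7% of the 9873 tested genes with an entry and of 32.9% of all 27025 genes in the table. The TATA box, which was searched as TATAAA on both strands, occurred in none of the 4 windows, in 4.44% of the members and in 6.33% of the tested genes. The cAMP response element TGACGTCA, the same on both strands, occurred in 0 of the 45 and in 2.73% of the tested genes. Overlapping matches were counted, and a match is a run of letters, not a measured site.

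In replicate 3 compared with the mean of replicates 1 and 2, 38 of the 54 genes (70.4%) were lower in both groups, where 41.4% of all tested genes were. The median was -0.83 in FLX and -0.62 in VEH arrays, against 0.06 and -0.10 over all tested genes. A value lower by at least 1 log2 unit in both groups was found for 19 of the 54 (35.2%; 16.6% of all tested genes), and one higher by that much for 0 (5.11% of all tested genes). These are descriptions of 1 array against 2 in each group, with no test.

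Receptors made up 12 of the 19, of 25 tested, and ligands 6, of 28 tested; Unc50 was the other. Those receptors were 5 of 9 Eph receptors (Epha3, Epha4, Epha5, Epha7 and Ephb6), both neuropilins, Plxna2, Plxnb2 and Plxnc1, Unc5d and Robo1. Ranked by the smaller of the shifts in FLX and VEH, the first were Sema3d, at -3.87 in FLX and -3.46 in VEH arrays, and Plxnb2, at -3.07 and -3.23. Plxnb2, a receptor for class 4 semaphorins, had 177, 409 and 32.0 in FLX and 231, 367 and 31.1 in VEH arrays. Sema3b followed at -2.05 in FLX and -2.33 in VEH arrays, and Robo1 at -1.87 and -2.31. Other genes had a larger shift in VEH, among them Sema4c (-1.52 in FLX, -3.09 in VEH), Nrp2 (-1.41 and -2.85) and Epha3 (-1.64 and -2.66).

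A few genes had higher values in replicate 3 of both groups, 8 of the 54 (14.8%; 40.5% of all tested genes). Plxnb3, a receptor for Sema5a, had 94.7, 99.9 and 173 in FLX and 68.3, 76.3 and 197 in VEH arrays, a shift of 0.83 in FLX and 1.45 in VEH arrays. Sema4g (0.25 and 0.49), Epha8 (0.12 and 0.36) and Sema7a (0.12 and 0.99) came next. In Sema7a the shift was nearly all in the VEH array, and Efnb1 (-1.21 in FLX, 0.10 in VEH) and Plxnd1 (-0.39 and 0.70) differed in sign between the groups.

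Marker genes also differed by replicate number. The 15 leptomeningeal and fibroblast markers were all lower in replicate 3 of both groups, with a median of -3.68 in FLX and -3.41 in VEH. Of 8 tested endothelial markers 7 were lower in both, with a list median of -0.83 in FLX and -1.67 in VEH. Of 9 tested microglia and macrophage markers 7 were lower in both, with a list median of -0.58 and -1.44. Of 11 astrocyte markers 5 were lower and 4 higher in both, with a list median of 0.25 and -0.59. Of the 6 tested pericyte and smooth muscle markers 4 were lower in both groups and 2, Rgs5 (1.96 in FLX, 1.55 in VEH) and Cspg4 (0.04 and 0.47), were higher, with a list median of -2.66 and -2.80. For oligodendrocyte markers the medians were 1.22 in FLX and 0.60 in VEH, with 6 of 9 higher in both. Of the 8 pyramidal cell markers, 4 had higher and 2 had lower replicate 3 values in FLX and VEH alike. That list's median shift was 0.18 (FLX) and 0.69 (VEH). The lower ones included Slc17a6, the vesicular glutamate transporter of many subcortical neurons, at -1.30 and -2.06. Among the 10 interneuron markers, 8 were higher and 2 lower in FLX and VEH alike, and the median shift was 0.75 (FLX) and 0.61 (VEH). The 8 tested layer 5 markers split, 4 lower and 3 higher in both groups, and their median was -0.34 in FLX and 0.23 in VEH. Among them Bcl11b, a transcription factor of layer 5 and striatal neurons, was higher by 1.75 and 1.28, and Rbp4 was lower by -1.95 and -2.24. The 3′ minus 5′ log2 difference of the Gapdh control probe sets, which grows as RNA is degraded, was 1.83 in both replicate 3 arrays and 1.99 to 2.32 in the others. That of the Actb controls was 2.32 in FLX and 2.56 in VEH replicate 3, and 2.18 to 2.34 in the others. The part of these markers in the guidance gene values was not tested.

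**Figure D4:**
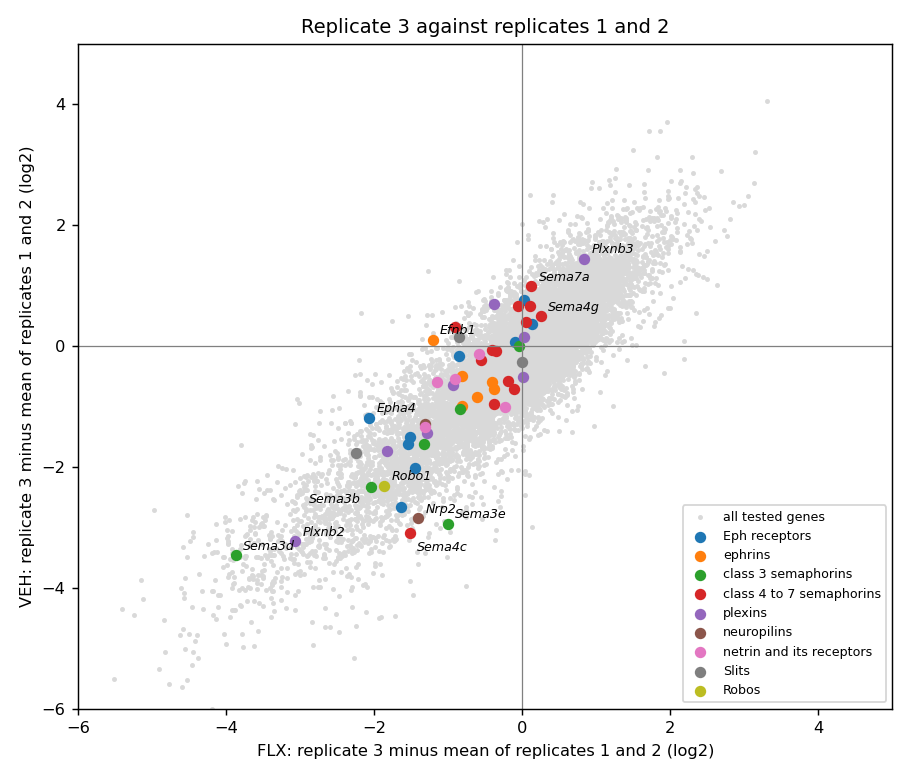
Replicate 3 minus the mean of replicates 1 and 2 on the log2 scale, FLX on the horizontal and VEH on the vertical axis, for the 53 tested guidance genes by family over all tested genes in grey. Most guidance genes lie in the lower left, with Sema3d and Plxnb2 farthest out, and Plxnb3 is the highest on the upper right.

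No other gene of the pathway passed either. Of 34 further guidance ligands, receptors and adhesion molecules 31 were tested, and 0 passed. There were 25 positive and 6 negative differences (58.1% of all tested genes were positive), with a median of 0.18 and a highest value of 0.57 for Cntn1. FLX was higher in all 3 replicate numbers for 15 of the 31 (20.2% of all tested genes) and lower for 2 (13.6%). With the block 6 of the 31 had an unadjusted limma p under 0.05 (7.6% of all tested genes), and 0 passed after adjustment. Ntn5, a member of the netrin family, had -0.24 and Vangl2, a planar cell polarity protein, 0.18. In replicate 3 this list was lower with a median of -1.28 in FLX and -1.29 in VEH. Of 51 cytoplasmic effectors 47 were tested and 0 passed, with 31 positive and 16 negative differences and a median of 0.07. Mical2, an actin-oxidising enzyme, had -0.50 (SE 0.25), and Chn1, encoding the Rac-inactivating protein through which Epha4 signals, had 0.40 (SE 0.21), with 8715, 8337 and 11401 in FLX and 6467, 7312 and 7680 in VEH arrays. The effectors were not lower in replicate 3, with a median of 0.41 in FLX and 0.16 in VEH.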

How the data were processed

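The deposited values are 1 intensity per probe set and array on a linear scale, normalized by the authors with GCRMA per the submitters' processing notes. Of 45101 probe sets 64 controls were left out, and 34945 have 1 gene symbol in the platform annotation. Testing took in the 22200 probe sets that averaged 50, the cut-off the submitters name, or above in either group. The test was limma (version 3.58.1, R 4.3.3), two-sided, with log2 intensity as the response, treatment as the only term and no pseudocount. Benjamini-Hochberg adjustment covered every tested probe set, and the script was checked on simulated data. The submitters advise restricting the analysis to a probe set list of their paper, which was not used here. The number of arrays limits the precision. Nothing says whether replicates came from separate animals beyond their being called biological and independent, so p-values measure the spread between these arrays.

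Deviations from the group means correlated at 0.70, 0.84 and 0.87 between arrays of replicate numbers 1, 2 and 3, above the limit of 0.1 for pairing. However, FLX replicate 2 and VEH replicate 1 reached 0.76, and FLX replicate 1 and VEH replicate 2 reached 0.64. Passing the limit thus does not show that numbers 1 and 2 are pairs. Because it was passed, counts with replicate number as a second term (a block) are given too, and the blocked SE for Epha5, Epha7, Sema3c, Sema3e and Unc5d.

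The genes, lists and rules were chosen with earlier results of these data known. Named genes were those with the smallest p in each family and over all families, and those without overlap between groups. Those with the largest shifts in replicate 3 and 2 from each of the other pathway lists were added. A rule for tested probe sets of opposite sign that differ by 0.5 or more took in no gene. Single marker genes were named outside these rules. Other members are given by their values or counts. Figures were drawn with matplotlib 3.10.9.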

Additional observations from a re-analysis of the deposited data

How the results depend on the processing

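Calls appeared only where the replicate block was combined with leaving out replicate 2 or replicate 3 of both groups. With the replicate block 0 of 22200 probe sets and 0 of 54 guidance genes passed, and the smallest adjusted p of a guidance gene was 0.623 (limma). The same block without replicate 2 of both groups, added after seeing the data and with 1 residual degree of freedom, gave 67 probe sets and 1 guidance gene, Sema3e (adjusted p = 0.00762); without replicate 3 it gave 1 probe set (adjusted p = 0.0485) and 0 guidance genes, and without replicate 1 the median of class 4 to 7 semaphorins was -0.059. Every other alternative run gave 0 calls; without a filter 364 of 45037 probe sets and 2 of 68 guidance genes had an unadjusted p under 0.05. The cause was not tested.

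Leaving out 1 array at a time moved the median of the 54 genes between -0.14 and 0.32. Each such setting leaves the groups unbalanced over the replicate numbers. By family the range was -0.056 to 0.58 for Eph receptors, -0.23 to 0.28 for ephrins, -0.15 to 0.93 for class 3 and -0.018 to 0.28 for class 4 to 7 semaphorins, -0.21 to 0.18 for plexins, -0.44 to 0.72 for neuropilins, -0.16 to 0.34 for netrin receptors, -0.34 to 0.10 for Slits and -0.90 to 0.49 for Robo1. Genes that changed sign had ranges of -0.29 to 0.11 (Epha10), -0.34 to 0.13 (Ephb3), -0.16 to 0.064 (Epha8), -0.0010 to 0.47 (Efna3), -1.41 to 1.04 (Sema3d), -0.0034 to 0.98 (Sema3c), -0.58 to 0.88 (Sema3b), -0.45 to 0.072 (Sema7a) and -0.26 to 0.094 (Sema6a). Among receptors they were -0.32 to 0.079 (Plxnd1), -0.057 to 0.71 (Plxnb3), -1.14 to 0.96 (Plxnb2), -0.36 to 1.21 (Nrp2), -0.51 to 0.36 (Nrp1), -0.37 to 0.22 (Dcc) and -0.90 to 0.49 (Robo1), with -0.35 to 0.10 for Slit1 and -0.58 to 0.65 for Unc50.

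Without replicate 3 of both groups the sign turned for Epha10 (0.11), Sema7a (0.032), Plxnd1 (0.21), Dcc (0.016), Slit1 (0.15), Unc50 (-0.11), Sema6a (0.061), Ephb3 (0.073) and Epha8 (0.023). With the mean of all probe sets it turned for Nrp1 (0.072), Dcc (0.0071) and Slit1 (0.055). The replicate 3 median was -0.48 in FLX and -0.42 in VEH with no filter, and -0.36 in VEH after quantile normalization. Signal near background limits Sema5a, Sema4g, Epha8 and the genes below 50.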
